A study of Mus musculus with 31 samples.

Results

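The Dlk1-Meg3 domain is a cluster of imprinted genes on distal mouse chromosome 12, read here through 6 genes: Dlk1, Rtl1, Dio3, Meg3, Rian and Mirg. The members were taken by symbol from the deposited table of exon counts, which held 24470 symbols, and all 6 were found, with 9 transcript rows among them. The study asked what the noncoding RNA Xist does on the inactive X chromosome once silencing is in place. RNA was sequenced from female mouse dermal fibroblasts with a hybrid genome (CAST/Ei with 129/Sv/Jae) in 3 groups of 2 libraries, which the labels call biological replicates. The WT group carried no deletion. Line 1 (XaWT XiΔXist) lacked Xist on the inactive X and kept it on the active X, and line 2 was a second cell line with the same genotype. Each deletion group was a single line, all groups were grown untreated in the same medium, and no age of the animals is given. The series also held 17 ATAC-seq and 8 ChIP-seq samples, which are not used here.

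Imprinted genes are transcribed from only the maternal or only the paternal copy, a choice set by DNA methylation laid down in the germ line. In this domain the protein-coding Dlk1, Rtl1 and Dio3 are mainly transcribed from the paternal copy, and the noncoding Meg3, Rian and Mirg from the maternal copy. Methylation of an intergenic control region between Dlk1 and Meg3 on the paternal copy keeps the 2 programmes apart, and Rian and Mirg are hosts of small nucleolar RNAs and microRNAs.

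By the file's mm10 coordinates the domain ran for 828 kb from the start of Dlk1 to the end of Dio3. Dlk1 lay at chr12:109452823-109463336 on the plus strand and Meg3 at chr12:109545398-109568650 on the plus strand, with further Meg3 rows starting upstream at 109540996. Rtl1 lay at chr12:109590169-109595403 on the minus strand, Rian at chr12:109603945-109661711, Mirg at chr12:109734981-109749457 and Dio3 at chr12:110279230-110281097, all 3 on the plus strand. The promoters of Dlk1 and Meg3 are printed because these genes are the heads of the paternal and the maternal programme. They are the RefSeq windows of build GRCm38.p6, from 250 bases before to 50 bases after a start on the plus strand. Dlk1 is at chr12:109452573-109452872 and Meg3 at chr12:109540746-109541045, and capitals mark each CpG, the pair of bases that carries methylation.

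Dlk1 promoter: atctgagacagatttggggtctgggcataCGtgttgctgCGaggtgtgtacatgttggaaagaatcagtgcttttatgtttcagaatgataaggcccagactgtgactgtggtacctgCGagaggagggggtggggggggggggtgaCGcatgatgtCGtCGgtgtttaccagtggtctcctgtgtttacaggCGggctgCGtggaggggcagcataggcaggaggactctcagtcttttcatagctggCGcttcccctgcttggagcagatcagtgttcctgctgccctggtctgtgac
Meg3 promoter: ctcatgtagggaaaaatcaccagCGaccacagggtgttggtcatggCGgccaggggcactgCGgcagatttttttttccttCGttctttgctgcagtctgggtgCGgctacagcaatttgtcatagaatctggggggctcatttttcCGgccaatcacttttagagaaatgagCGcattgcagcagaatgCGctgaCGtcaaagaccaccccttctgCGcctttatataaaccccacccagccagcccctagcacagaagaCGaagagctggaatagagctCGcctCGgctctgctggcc

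The Dlk1 window held 9 CpG and the Meg3 window 13, against a median of 7 over 32851 RefSeq promoters, of which 54.2% and 62.1% held fewer. On either strand the Meg3 window had 2 overlapping matches to TATAAA, found in 13.6% of all promoters, and 1 match to CCAAT, found in 37.4%. Neither window matched GGGCGG, found in 35.7% of all promoters, or GCCATNTT, found in 6.05%, and the Dlk1 window matched none of the 4 motifs. The printed Meg3 window is that of the upstream start. The window of the downstream start, where the most counted Meg3 row begins, had 1 CpG, that of Dio3 had 25, that of Mirg 10 and that of Rian 0.

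Rtl1 shares its place with microRNAs on the opposite strand. Its exon row is overlapped on the plus strand by 6 microRNA hairpins with 11 mature sequences, printed because reads from the 2 strands cannot be told apart here: the library kit kept strand, but the sources used here do not say whether counting used it. The sequences are from RefSeq, and capitals mark the seed, bases 2 to 8, which pairs with target RNAs.

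mmu-miR-431-5p: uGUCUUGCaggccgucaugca
mmu-miR-431-3p: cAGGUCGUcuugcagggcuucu
mmu-miR-433-5p: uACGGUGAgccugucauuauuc
mmu-miR-433-3p: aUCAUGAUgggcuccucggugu
mmu-miR-127-5p: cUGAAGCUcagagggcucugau
mmu-miR-127-3p: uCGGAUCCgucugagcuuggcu
mmu-miR-434-5p: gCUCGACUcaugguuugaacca
mmu-miR-434-3p: uUUGAACCaucacucgacuccu
mmu-miR-432: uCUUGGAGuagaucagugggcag
mmu-miR-136-5p: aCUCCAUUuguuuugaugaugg
mmu-miR-136-3p: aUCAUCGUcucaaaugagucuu

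These 11 carried 11 different seeds. Over all 61 microRNA entries of the domain, 58 had a RefSeq hairpin, and their 113 mature sequences carried 104 seeds, of which 9 were shared by a pair, such as AUGUAAC in miR-379-3p and miR-411-3p and UGGAUAU in miR-376b-5p and miR-376c-5p.

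The deletion was visible in every library. Xist, at X:103460373-103483233, had 2505 and 2678.5 exon counts in the WT libraries, 3.5 and 2 in line 1 and 4 and 2 in line 2. The file header gave totals of 10.5 to 20.1 M per library, and 3.81 to 7.07 M exon counts were used, with replicate 2 the deeper library of each group. All 12 fibroblast markers were detected in each group, with a summed level of 5870 to 7190 CPM (exon counts scaled to library size) in WT, 4880 to 7820 in line 1 and 5850 to 7350 in line 2. Of these markers edgeR called Dcn alone, higher in line 1 at 200 CPM against 44.4 in WT (log2 difference 2.19, adjusted p = 0.0215). Dcn stood at 24.1 CPM in line 2, lower than in line 1 (log2 difference -3.06, adjusted p = 0.0083). The 5 keratinocyte markers summed to at most 0.8 CPM, and the muscle regulators Myod1, Myf5 and Myog were at 0 in both lines. The muscle marker Des went the other way in line 2, at 6.79 CPM against 2.45 in WT and 0.947 in line 1. Between the lines edgeR did not call Des (adjusted p = 0.0585), but DESeq2 did (adjusted p = 0.0238). Summed levels of 5 adipocyte markers were 47.7 to 104 CPM in line 1, 145 to 149 in line 2 and 189 to 210 in WT, with Adipoq at 0 in WT and line 2. In the order WT, line 1, line 2 those of 5 endothelial markers were 10.2 to 12, 2.43 to 3.34 and 4.58 to 6.3 CPM, of 5 melanocyte and Schwann markers 11.9 to 14, 57.6 to 57.7 and 8.53 to 11.3 with Dct at 0 throughout, of 5 leukocyte markers 14.7 in both WT libraries, 8.53 to 18.5 and 19.6 to 22.2, and of 7 muscle progenitor markers 1.92 to 4.29, 2.84 to 4.57 and 6.7 to 8.96. The part of these other cell types in the members' levels was not tested, and in bulk RNA fewer cells with a transcript and less of it per cell cannot be told apart.

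In WT fibroblasts both programmes of the domain were on. Per kilobase of exon, Dlk1 stood highest at 28.7 to 35.7 CPM per kb, followed by Rian at 11.1 to 17.7, Meg3 at 7.7 to 8.57, Mirg at 5.16 to 8.57, Rtl1 at 1.67 to 2.09 and Dio3 at 0.271 to 0.514. Meg3 and Mirg overlapped, and no other neighbours in this order did. The place of Meg3 depends on its transcript row: in a fit that kept every row, the row with the highest total had 6.53 ± 0.483 CPM per kb (SD, n = 2), the row of similar length that starts upstream 3.49 ± 0.196 and the short row 19.6 ± 0.7, against 11.5 ± 3.74 for Rian. Per library, not per length, the summed level of Meg3, Rian and Mirg was 135 and 173 CPM in WT, close to the 134 and 167 CPM of Dlk1.

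**Figure D1:**
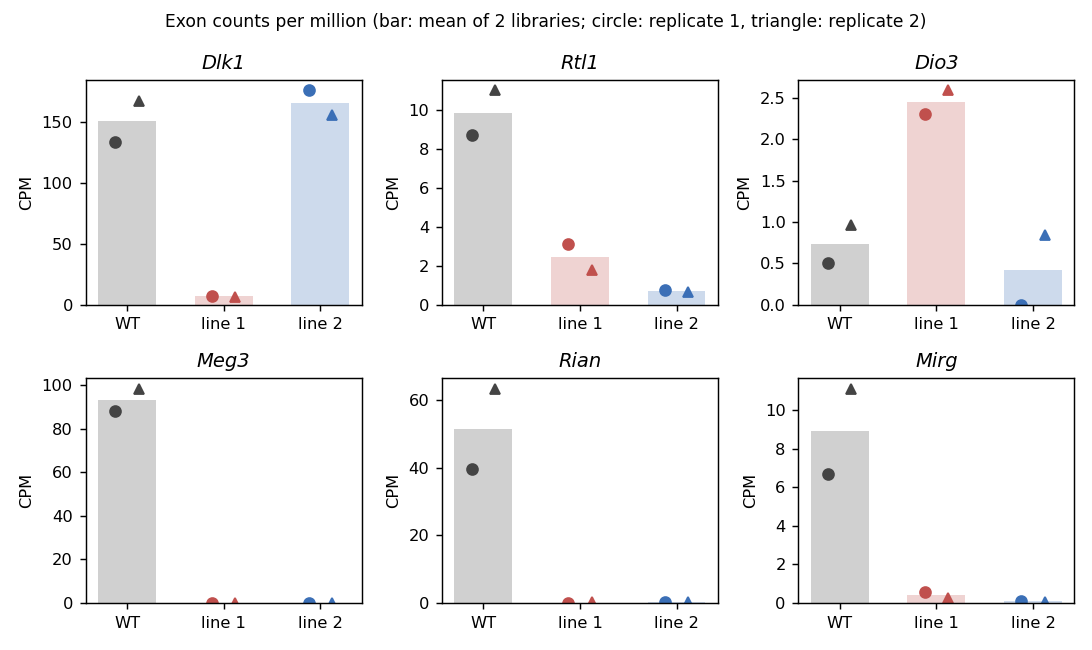
Level of each of the 6 genes in CPM (vertical axis, each panel on its own linear scale from 0) in WT, line 1 and line 2; bars are means of 2 libraries, circles replicate 1 and triangles replicate 2. Meg3, Rian and Mirg are near 0 in both lines, whereas Dlk1 is near 0 in line 1 alone, at 7.3 and 6.01 CPM against 134 and 167 in WT and 176 and 156 in line 2.

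Line 1 had less RNA from both programmes of the domain. The maternally expressed Meg3, Rian and Mirg and the paternally expressed Dlk1 and Rtl1 all fell against WT, and only Dio3, at the far end, did not pass the test. The Rtl1 row may also hold reads of the opposite strand, which cannot be told apart here. By edgeR's quasi-likelihood test over all 12910 symbols tested, 5 of the 6 members were called lower at an adjusted p under 0.05, against 7.55% of all symbols called lower and 14.3% called in either direction. Dio3 entered the test through its line 1 libraries, where it is highest. Meg3, Rian, Mirg and Rtl1 entered it through their WT libraries, where they are highest, so the number of members called lower is a description.

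Dlk1, a transmembrane relative of the Notch ligands that holds back adipocyte differentiation, had 531 and 1045 counts in WT and 27 and 44 in line 1. As CPM these were 7.3 and 6.01 in line 1 against 134 and 167 in WT, so both line 1 libraries lay far below both WT libraries. The level in line 1 was 4.41% of WT, and Dlk1 fell by 4.53 on the log2 scale (SE 0.20, adjusted p = 0.000274). Both Dlk1 rows showed this: the shorter coding row, which holds 85.2% to 98.1% of the counts of the longer one, had 491.5 and 925 counts in WT and 26.5 and 37.5 in line 1.

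Meg3, a long noncoding RNA, went from 349.5 and 614.5 counts in WT to 0.5 and 0 in line 1. All 3 Meg3 rows were at or near 0 in line 1, where the 2 rows with the upstream start had no count. The log2 ratio of line 1 to WT was -11.02 (95% counting interval -15.33 to -7.54, adjusted p = 0.000354), which rests on 0.5 counts. A ratio with an interval is given for such rows because the fitted fold of a gene near 0 depends on the prior count, and the interval covers counting error only. The ratio uses the deposited counts and the interval the rounded ones, while the adjusted p is that of the fitted fold.

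Rian, the host of small nucleolar RNAs next to Meg3, had 156.5 and 395.5 counts in WT and 0 and 1 in line 1. Its log2 ratio was -9.22 (counting interval -14.53 to -6.74, adjusted p = 0.000615). Mirg, the host of the distal microRNA cluster, had 26.5 and 69.5 counts in WT and 2 in each line 1 library, and fell by 4.55 (SE 0.51, adjusted p = 0.0031). All 3 noncoding genes lay below WT without overlap, and their sum of 135 and 173 CPM in WT compared with 0.676 and 0.409 CPM in line 1.

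Rtl1, which encodes a retrotransposon-derived protein needed in the mouse placenta, kept part of its signal in line 1. It had 34.5 and 68.5 counts in WT and 11.5 and 13 in line 1, or 9.84 ± 1.59 CPM (SD, n = 2) against 2.44 ± 0.943. The groups did not overlap, line 1 held 24.8% of the WT level, and Rtl1 fell by 2.06 on the log2 scale (SE 0.36, adjusted p = 0.0148). Without WT replicate 1 the adjusted p was 0.0588 and without WT replicate 2 it was 0.114, so this call rested on both WT libraries.

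Dio3, the deiodinase that inactivates thyroid hormone, had 2 and 6 counts in WT and 8.5 and 19 in line 1. In CPM these are 0.505 and 0.96 against 2.3 and 2.59, so both line 1 libraries lay above both WT libraries. The log2 difference of 1.68 (SE 0.72) did not pass, at an adjusted p of 0.194. None of the 6 members overlapped between line 1 and WT, 5 of them lower, but with groups of 2 this was common: 51.1% of all symbols did not overlap and 25.6% did so lower in line 1. Its antisense noncoding neighbour Dio3os was too low to test, with 1 and 5 counts in WT and 4.5 and 6 in line 1.

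Line 2 had less of the noncoding RNAs and fewer counts over the Rtl1 row, with Dlk1 in the range of WT. Reads of Rtl1 and of the opposite strand cannot be told apart in that row. Meg3, Rian, Mirg and Rtl1 fell against WT, whereas Dlk1 and Dio3 did not pass the test. These 4 of 6 calls, all lower, compare with 1.85% of all symbols called lower, 1.73% called higher and 3.58% called in either direction in line 2. Here too Meg3, Rian, Mirg and Rtl1 entered the test through WT, so this count is a description. The same 4 members did not overlap with WT, as did 48.8% of all symbols. The same WT libraries served both lines, so the comparisons with WT are not independent: 4 of the 6 members were called lower in each, as were 145 or 1.12% of all symbols.

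Dlk1 had 726.5 and 1107 counts in line 2, or 176 and 156 CPM, and overlapped with the 134 and 167 CPM of WT. Its log2 difference from WT was 0.14 (SE 0.15, adjusted p = 0.826), at 110% of the WT level. The shorter Dlk1 row gave 0.12 (SE 0.16, adjusted p = 0.854).

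Meg3 was at 0 and 0.5 counts in line 2, a log2 ratio to WT of -11.05 (counting interval -15.36 to -7.57, adjusted p = 0.00213). Rian had 1 and 1.5 counts, a log2 ratio of -7.92 (-9.94 to -6.11, adjusted p = 0.00369). Mirg had 0.5 counts in each library, a log2 ratio of -6.72 (-8.8 to -3.84, adjusted p = 0.0105). In sum the 3 noncoding genes had 0.363 and 0.352 CPM in line 2 beside 176 and 156 CPM of Dlk1, where WT had about as much of one as of the other.

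Rtl1 was at 3 and 4.5 counts in line 2, or 0.681 ± 0.0653 CPM (SD, n = 2) against 9.84 ± 1.59 in WT, and fell by 3.77 (SE 0.43, adjusted p = 0.0122) to 6.92% of WT. Dio3 had 0 and 6 counts, overlapped with WT and had a log2 difference of -0.56 (SE 0.92, adjusted p = 0.9). The line 2 calls depended on single libraries: leaving out WT replicate 2 or line 2 replicate 1 left 2 members called, and leaving out line 2 replicate 2 left 1. Meg3 was the member still called in each of these, while Rtl1 was lost without any 1 of the 4 compared libraries (adjusted p = 0.0671 to 0.147), Mirg without WT replicate 2 or either line 2 library (0.0655 to 0.13) and Rian without line 2 replicate 2 (0.0521).

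**Figure D2:**
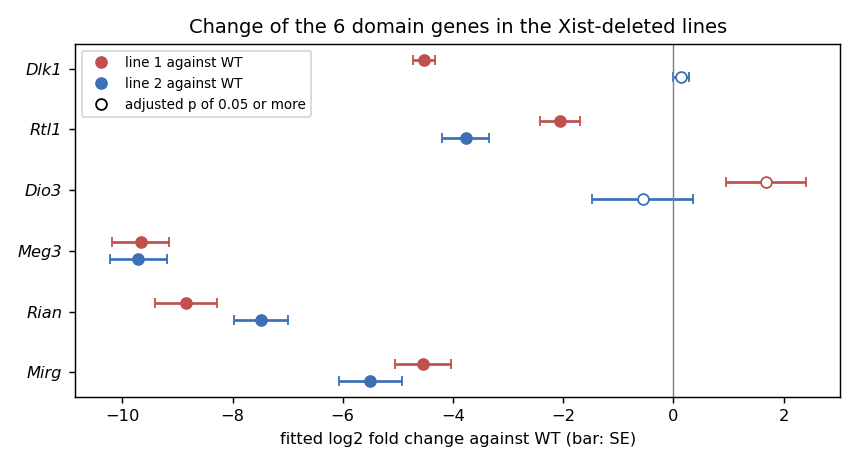
Fitted log2 fold change against WT (horizontal axis) of each gene in line 1 (red) and line 2 (blue), with bars for the SE of the fit; filled points passed an adjusted p of 0.05 and open points did not. Dlk1 stands at -4.53 in line 1 and 0.14 in line 2, and the fitted values of Meg3 and Rian in both lines and of Mirg in line 2 depend on the prior count.

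Between the lines, Dlk1 was the 1 member called. It stood at 166 ± 14.1 CPM in line 2 and 6.65 ± 0.914 in line 1 (SD, n = 2 each), a log2 difference of line 2 minus line 1 of 4.66 (SE 0.20, adjusted p = 0.000287). Over all symbols 12.6% were called, 6.87% higher in line 2 and 5.76% lower. Rtl1 stood at 0.727 and 0.634 CPM in line 2 and 3.11 and 1.77 in line 1 without overlap, as did 48.2% of all symbols, and its log2 difference of -1.70 (SE 0.49) did not pass at an adjusted p of 0.0797. It passed with no filter on low counts (adjusted p = 0.033) and without line 1 replicate 2 (0.0477). Dio3 had a log2 difference of -2.24 (SE 0.76, adjusted p = 0.124), which passed with no filter (0.0322). Meg3 and Rian had at most 3 counts in each line, so no fold between the lines is given, and the log2 ratio of Mirg was -2.03 with a counting interval of -4.49 to 1.78 (adjusted p = 0.689).

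Distances between profiles over the 6 libraries did not separate the 2 programmes cleanly. The root mean square distance of centred log2 CPM was 0.685 between Meg3 and Rian and 0.713 between Mirg and Rtl1, the coding gene with the noncoding host. It was 3.24 between Dlk1 and Meg3 and 3.91 between Meg3 and Dio3. Mirg lay farther from Rian (1.35) and Meg3 (1.84) than from Rtl1, and Rtl1 was 1.49 from Dio3. These are descriptions over 6 libraries with a prior count of 2, which pulls low genes together. Reads over the Rtl1 row may come from either strand.

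The small RNA entries of the domain gave few counts. Besides the 6 genes the domain held 71 symbols, of which 61 were microRNAs and 7 small nucleolar RNAs, and 1 was abundant enough to test. At least 0.5 counts were found for 41 of them in WT, 7 in line 1 and 6 in line 2. Their counts summed to 25.5 and 62.5 in the WT libraries, 9.5 and 14 in those of line 1 and 2.5 and 1.5 in those of line 2, so both lines lay below WT. The 61 microRNA entries alone had 15 and 29 counts in the WT libraries, 2 and 2 in those of line 1 and 2 and 1 in those of line 2, and most of the line 1 sum came from the 3 entries of other kinds, with 7 and 12 counts. The microRNA entries count fragments of RNA over hairpins in libraries of fragmented total RNA, not mature microRNAs.

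Among the hairpins opposite Rtl1, Mir433 had the most counts, 1 and 3 in WT, 0 and 1.5 in line 1 and 0 in line 2. The tested entry was 6430411K18Rik, a noncoding transcript at chr12:109591537-109592851 that lies opposite Rtl1, with 7.5 and 21 counts in the WT libraries, 2.5 and 6 in those of line 1 and 0.5 and 0 in those of line 2. Neither line overlapped with WT, but 51.1% of all symbols did not in line 1 and 48.8% in line 2. It was not called in line 1, with a log2 difference of -1.73 (SE 0.56, adjusted p = 0.0982). In line 2 it was called, with a log2 ratio of -5.97 (counting interval -10.35 to -2.4, adjusted p = 0.0405), but not by DESeq2 (adjusted p = 0.106). It entered the test through its WT libraries, where it is highest, so its call is a description. Mir1906-1, a hairpin near the start of Meg3, had 4.5 and 8 counts in WT and 0 in all 4 libraries of the lines. With a floor of 3 counts for each group's sum, it was at least 4.68-fold lower in line 1 and at least 4.76-fold lower in line 2. The file lists 2 genomic copies of it, so its source is uncertain.

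Counts of called genes beside the domain were read against 14.3% of all symbols called in line 1 and 3.58% in line 2. Of 12 genes within 1000 kb before Dlk1, 10 were tested, and Eml1, a microtubule-associated protein, alone was called in line 1, higher by 0.47 on the log2 scale (adjusted p = 0.0391, 0.0571 by DESeq2). The median of these 10 was 0.10 in line 1 and -0.04 in line 2, against 0.01 over all symbols in either line. Of 16 genes within 1000 kb after Dio3, 11 were tested, and the kinase gene Mok alone was called in line 1, higher by 1.28 (adjusted p = 0.0395, 0.126 by DESeq2), with medians of 0.04 and 0.01. In line 2 edgeR and DESeq2 called 0 genes on either side, with 1 and 0 at an unadjusted p under 0.05. The lowest log2 value among all 21 flanking genes was -0.44 in line 1 and -1.04 in line 2, where Dlk1's imprinting neighbour Begain had 2.04 ± 1.39 CPM against 4.16 ± 1.8 in WT (adjusted p = 0.578).

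**Figure D3:**
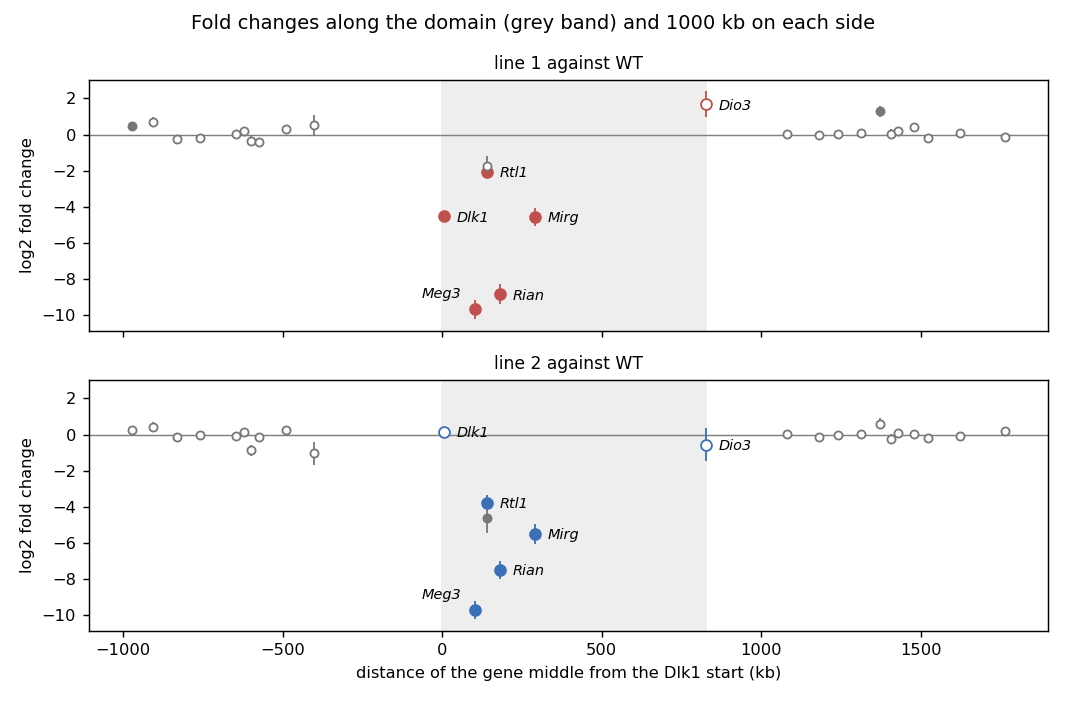
Fitted log2 fold change against WT (vertical axis, bars show the SE) by distance of each tested gene from the Dlk1 start in kb, for line 1 (top) and line 2 (bottom); the grey band is the domain, coloured points are its named genes, grey points are other genes, and filled points passed an adjusted p of 0.05. Losses lie inside the band, with Dlk1 at -4.53 in line 1 and 0.14 in line 2, and the unnamed grey point beside Rtl1 is 6430411K18Rik.

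A list of 24 genes of imprint maintenance and of DNA methylation and chromatin more widely held DNA methyltransferases, Tet enzymes, Polycomb subunits and zinc finger repressors. Of these, 22 were tested, and 2 fell and 0 rose in line 1, with a median of -0.03, beside 7.55% of all symbols called lower. Aff3, a transcription elongation factor that binds the control region of this domain in mouse stem cells, fell by 1.55 (SE 0.22, adjusted p = 0.0069), from 87.7 to 30.5 CPM, and stood at 83.6 CPM in line 2. Zfp57, which binds methylated imprint control regions, fell by 0.65 (SE 0.16, adjusted p = 0.0442), but not by DESeq2 (0.0622). In line 2 edgeR and DESeq2 called 0 of 22, with 4 at an unadjusted p under 0.05 and a median of -0.01. Between the lines Aff3 and Tet1, a methylcytosine oxidase, were higher in line 2 (log2 difference 1.48, adjusted p = 0.00844, and 1.26, adjusted p = 0.027).

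Of 20 genes of adipogenesis and of the Notch pathway, to which Dlk1 is related, 15 were tested, and 2 fell and 1 rose in line 1, with a median of -0.35 and 5 called by DESeq2. These counts stand beside 14.3% of all symbols called in line 1. The Notch ligand Jag1 fell by 3.64 (SE 0.34, adjusted p = 0.00174), from 96.2 to 7.97 CPM. Hey2, a Notch target, fell by 5.22 (SE 1.18, adjusted p = 0.0339), from a WT level that differed widely between libraries (23.8 ± 19.8 CPM; SD, n = 2). Dlk2, the paralog of Dlk1, rose by 2.21 (SE 0.35, adjusted p = 0.0103), from 3.49 to 17.2 CPM, and stood at 3.64 in line 2. Pparg, the driver of adipocyte differentiation, had 11.9 ± 1.86 CPM in line 1, with WT at 27 ± 16.4 and line 2 at 27.2 ± 10.6, and was not called in line 1 (adjusted p = 0.175). In line 2 edgeR called 0 of 15, with 3 at an unadjusted p under 0.05 and 1 by DESeq2, and the median was 0.17.

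Of 13 genes of thyroid hormone handling, the pathway of Dio3, 8 were tested. The transporter Slc16a10 rose in line 1 by 2.43 (SE 0.17, adjusted p = 0.000748), from 10.7 to 58.2 CPM. It was the 1 edgeR call there (median -0.02), beside 14.3% of all symbols called, and DESeq2 called 2 of the 8. In line 2 edgeR and DESeq2 called 0 of 8, with 1 at an unadjusted p under 0.05 and a median of 0.00, and Slc16a10 stood at 18.6 CPM (log2 difference from WT 0.79, adjusted p = 0.0671).

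Imprinted genes elsewhere in the genome changed unevenly. Of 42 listed, 30 were tested. In line 1, 9 fell and 1 rose (median -0.36), beside 14.3% of all symbols called, with 12 called by DESeq2 and 17 at an unadjusted p under 0.05. In line 2, 2 fell and 0 rose (median -0.27), beside 3.58% of all symbols, with 7 called by DESeq2 and 13 at an unadjusted p under 0.05. Nnat, a proteolipid, fell in both lines, from 56.5 CPM to 6.32 in line 1 (-3.15 on the log2 scale, adjusted p = 0.000657) and to 5.83 in line 2 (-3.28, adjusted p = 0.00348). The amino acid transporter Slc38a4 did so as well, with log2 fold changes of -5.86 in line 1 (adjusted p = 0.000689) and -4.28 in line 2 (adjusted p = 0.00515). The zinc finger gene Peg3 and the cell cycle inhibitor Cdkn1c were near 0 in line 1, at 0.0341 and 0.272 CPM against 53.1 and 49.9 in WT, and stood at 62 and 18.9 CPM in line 2. Like Dlk1, both were higher in line 2 than in line 1 (adjusted p = 0.000918 and 0.00332).

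**Figure D4:**
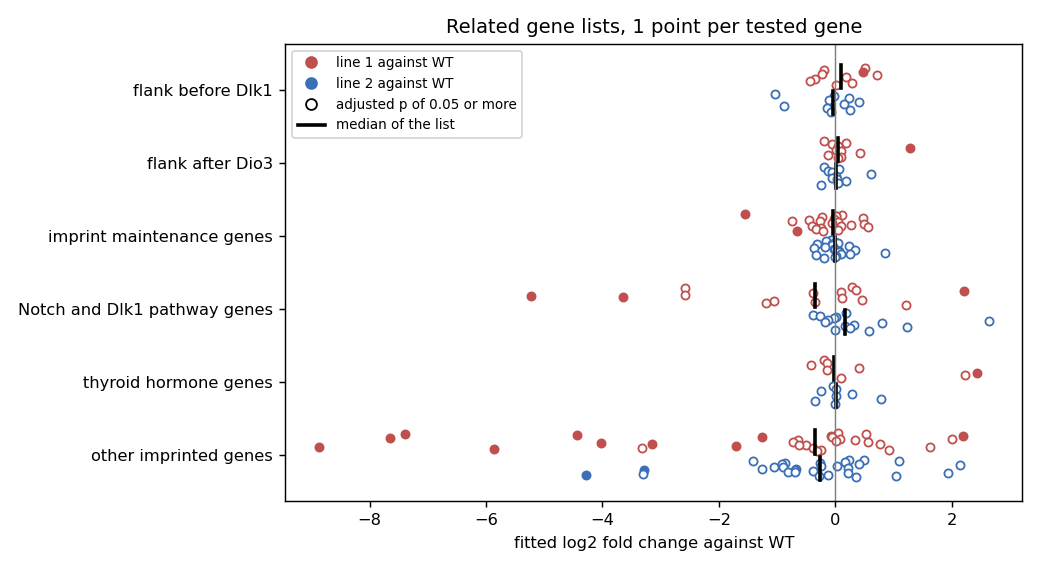
Fitted log2 fold change against WT (horizontal axis) of each tested gene in 6 lists (rows), line 1 in red and line 2 in blue; filled points passed an adjusted p of 0.05 and black bars are list medians. The flanks have medians of 0.10 and 0.04 in line 1, with Mok at 1.28, and other imprinted genes spread to both sides of 0, from -8.87 to 2.19 in line 1 with a median of -0.36.

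The 5 profiles nearest to Meg3 and to Dlk1 were listed, and how many genes lie within a given distance was not counted. Of 12148 symbols compared, with the members of the domain left out, the profiles nearest to Meg3 over the 6 libraries by root mean square distance of centred log2 CPM were those of Pgr, the progesterone receptor (0.373), Tsix, antisense to Xist (0.778), Xist (0.8), Cyba, a subunit of NADPH oxidase (0.826), and Hydin, a ciliary protein (1.21). Rian, at 0.685 from Meg3, was nearer than all of these but Pgr. Pgr had 377 and 468.5 counts in WT, 0 in both line 1 libraries and 0.5 and 1 in line 2. Nearest to Dlk1 were Isyna1, an inositol phosphate synthase (0.204), Mageh1 (0.21), the protease Ctsh (0.247), the protocadherin Pcdhb15 (0.255) and the sulfatase Sulf1 (0.26). Isyna1 had 3.92 and 3 CPM in line 1, with WT at 109 and 93.1 and line 2 at 107 and 88.1. These 10 genes lie on other chromosomes than the domain, whose own members were not ranked, and a profile over 3 groups of 2 libraries is mostly a pattern of group means.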

How the data were processed

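Per the labels' protocols, libraries came from total RNA after ribosomal RNA removal, kept strand and gave 50 bp paired reads. The authors made estimated counts over the exons of each RefSeq transcript with HOMER on mm10, without normalization and in steps of 0.5, per the file headers. The submitters' processing notes also name Trim Galore 0.4.1, TopHat2, SAMtools and bedtools 2.25.0. Other deposited files were not used here. Counts were expected whole; values were therefore rounded, with 0.5 up. For 3356 symbols with several rows the row with the highest total was used, which left out 4502 rows. The quasi-likelihood test of edgeR 4.0.16 (R 4.3.3) was run on the 6 libraries together, with 1 mean for each group, filterByExpr, TMM scaling and 3 residual degrees of freedom (common biological coefficient of variation 0.17). Its p-values were adjusted by Benjamini-Hochberg over 12910 symbols at 0.05. CPM used the deposited values over TMM library sizes. Groups with 1 to 3 rounded counts were given as a ratio of deposited counts with a 95% exact binomial interval from rounded counts, and those with 0 as a bound at 3 counts. The fit was tested on simulated data.

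The named genes were the 6 members, other domain symbols with at least 10 counts, Xist, up to 4 called genes per list and comparison, and the 5 nearest profiles to Meg3 and to Dlk1. A gene that this rule took is not reported here. Begain, Pparg, Mir433, Dcn and Des were named, and the counts of the other hairpins opposite Rtl1 given, after their values were seen. Members and lists were chosen with earlier results of these data known. Alternatives were DESeq2 1.42.0, other scalings, filters and fits, a replicate block and leaving out each library.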

Additional observations from a re-analysis of the deposited data

Results flagged for a closer look

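These results were picked out because the change against WT differed between line 1 and line 2, by edgeR's test of line 2 minus line 1 over all symbols. That test called 12.6% of all symbols. For the domain this was Dlk1, with a log2 difference of 4.66 (adjusted p = 0.000287). Among genes of imprint maintenance, DNA methylation and chromatin, Aff3 differed by 1.48 (adjusted p = 0.00844) and Tet1 by 1.26 (0.027). Among Notch and adipogenic genes, Jag1 differed by 4.45 (0.000967), Notch3, a Notch receptor, by 2.28 (0.0285), the Notch targets Hey2 by 5.04 (0.0416) and Hey1 by 5.23 (0.0277), and Dlk2 by -2.20 (0.0105). Hey1 entered the test through its line 2 libraries, where it is highest, so its call is a description. Hey2 varied widely between the line 2 libraries (21 ± 18.7 CPM; SD, n = 2). Among genes of thyroid hormone handling, the transporter Slc16a10 differed by -1.64 (0.0021). Of 30 other imprinted genes tested, 6 were called higher in line 2 than in line 1 and 2 lower, and the 4 with the lowest adjusted p are given. The growth factor adaptor Grb10 differed by 1.67 (0.000897), the actin regulator Cobl by 5.53 (0.000908), Peg3 by 9.09 (0.000918) and Cdkn1c by 5.99 (0.00332). The fitted values of Hey1, Peg3 and Cdkn1c rest on at most 3 counts in line 1 and depend on the prior count; as log2 ratios they were 5.57 (95% counting interval 3.68 to 8.64), 10.32 (6.84 to 14.63) and 6.00 (4.44 to 8.29).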

How the results depend on the processing

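Over 15 alternatives, the number of members called in line 1 kept within 1.5 times of 5, and Meg3 passed in both lines and Dlk1 in line 1 in every one. In line 2 the number ran from 1 to 4 when single libraries were left out. Between the lines it was 1, but 3 with no filter on low counts, 2 with the replicate block and 1 to 2 when single libraries were left out; the block added Dio3 (log2 difference -2.21, adjusted p = 0.0408). Directions reversed for values that were never called: with single libraries left out, Dlk1 in line 2 ran from -0.01 (WT replicate 1 left out) to 0.31, Dio3 in line 2 from -5.00 to 0.13 (0.02 with WT replicate 2 and 0.13 with line 2 replicate 1 left out), and Meg3 between the lines from -2.25 to 2.35 (2.35 with line 1 replicate 1 and 0.53 with line 2 replicate 1 left out). The cause of these changes was not tested. Dio3 had too few counts to be fitted in some alternatives. Calls over all symbols were 1846 in line 1 and 4182 with the replicate block, 462 in line 2 and 1568 with it (948 with no filter, 790 with the compared groups alone), and 1630 and 3506 between the lines. They fell to 718 in line 1 without WT replicate 2, to 23 in line 2 without line 2 replicate 2 and to 600 between the lines without line 2 replicate 2. Across genes, the step from replicate 1 to replicate 2 correlated between the groups (Pearson 0.54, 0.61 and 0.53), but with 2 numbers this does not show a pairing. Counts near 0 limit Meg3, Rian, Mirg and the small RNAs: at this depth a fold between the lines could not be measured for Meg3 and Rian.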
